A study of Mus musculus with 8 samples.

Results

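The genes described here are E-cadherin (*Cdh1*) and 9 regulators of epithelial identity: *Epcam*, *Rab25*, *Grhl2*, *Ovol1*, *Ovol2*, *Esrp1*, *Esrp2*, *St14* and *Spint1*. They were taken by name from an RNA-seq table of 18990 genes, all 10 were present, and 9 reached the mean of 1 CPM (a read count scaled to library size) required for testing, as did 13866 genes in all. *Ovol1* did not reach it and is given by its values. The cells were wild-type mouse embryonic fibroblasts (MEFs) of the C57/BL6 strain, reprogrammed at passage 2 after transduction with lentiviruses for the tetracycline activator rtTA and for tet-STEMCCA, a cassette of *Oct4*, *Sox2*, *Klf4* and *c-Myc* (OSKM) that doxycycline switches on. All groups had the same reprogramming medium, which held 2 µg/mL doxycycline, 3 µM chiron, 0.25 µM of an Alk5 inhibitor that blocks TGFβ signalling, ascorbic acid and LIF. Before induction the cells received 40 nM of pooled siRNAs against *Ncor1* (*siNcor1*) or *Oct4* (*siOct4*), and RNA was collected at day 3 and day 6, from 2 biological replicates of each knockdown and day, which makes 4 groups and 8 libraries. Libraries of a non-targeting control were not analysed here, so every comparison sets one knockdown or one day against the other. The labels do not say whether replicates came from separate cultures, and the p-values measure the spread between these samples only.

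At day 3 the *siNcor1* libraries had 7.14 ± 0.085 log2-cpm of *Ncor1* (SD, n = 2) and the *siOct4*-labelled libraries 7.88 ± 0.081 (limma, adjusted p = 0.0139), and at day 6 the difference did not pass the test (adjusted p = 0.815). *Pou5f1*, the gene for OCT4, did not pass the test at day 3 (log2 fold change −0.076, adjusted p = 0.941) and was higher in the *siOct4*-labelled libraries at day 6 (1.78, adjusted p = 1.1e-04). Against *siNcor1*, *Pou5f1* was thus not called lower under the label *siOct4* on either day, and *Ncor1* was called lower in *siNcor1* at day 3 only. Without a non-targeting control the extent of neither knockdown can be measured here, and levels before day 3 were not measured in these libraries. The gene-level value of *Pou5f1* does not separate the cassette from the endogenous gene, and the group is named by its label throughout. The libraries held between 7735742 and 16445192 reads on genes, and 3 reads were worth between 0.174 and 0.380 CPM. The non-coding gene *Gm26917* took between 15.5% and 29.1% of the reads.

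Fibroblasts are mesenchymal cells, and their passage through a mesenchymal-to-epithelial transition is an early step of reprogramming. E-cadherin holds neighbouring epithelial cells together at adherens junctions and binds catenins inside the cell. The GRHL and OVOL transcription factors maintain the epithelial state, the ESRP proteins direct the epithelial pattern of splicing, and the ZEB and SNAIL factors repress *Cdh1* and other epithelial genes through the DNA letters CAGGTG, a form of the E-box.

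Sequence upstream of the start site is shown to place the E-box and the GRHL motif beside the values of the genes that carry them. The RefSeq promoter entries on GRCm38.p6 read here matched 4 of the 10 genes, *Epcam*, *Ovol2*, *Rab25* and *Spint1*. None of these entries matched *Cdh1*, *Esrp1*, *Esrp2*, *Grhl2*, *Ovol1* or *St14*, so their upstream sequence is not described. The *Ovol2* window lies inside the gene as GENCODE draws it, with its most upstream base in an annotated exon, and is not shown. Capitals mark the E-box, read as CAGGTG on one strand and CACCTG on the other, and ACCGGT, which reads the same on both strands and is the core of the GRHL consensus AACCGGTT.
Epcam, chr17:87635729-87635978, plus strand: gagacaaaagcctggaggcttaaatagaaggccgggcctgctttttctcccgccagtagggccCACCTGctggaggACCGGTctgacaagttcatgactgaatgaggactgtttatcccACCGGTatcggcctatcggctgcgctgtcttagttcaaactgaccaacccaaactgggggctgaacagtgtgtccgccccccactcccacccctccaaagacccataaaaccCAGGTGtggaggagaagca
Rab25, chr3:88548301-88548529, minus strand: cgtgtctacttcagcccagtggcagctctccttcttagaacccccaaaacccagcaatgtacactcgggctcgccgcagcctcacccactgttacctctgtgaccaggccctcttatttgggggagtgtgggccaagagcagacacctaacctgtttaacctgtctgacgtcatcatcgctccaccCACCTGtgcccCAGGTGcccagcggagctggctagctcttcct
Spint1, chr2:119237110-119237359, plus strand: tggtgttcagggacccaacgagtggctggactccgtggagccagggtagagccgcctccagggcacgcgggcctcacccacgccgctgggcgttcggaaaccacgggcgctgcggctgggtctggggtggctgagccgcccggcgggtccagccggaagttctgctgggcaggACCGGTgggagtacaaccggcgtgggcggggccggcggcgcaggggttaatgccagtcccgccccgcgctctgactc

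The *Epcam* sequence held 2 E-boxes, whose first bases lie 187 and 19 bases before the RefSeq start, and 2 copies of ACCGGT at 174 and 131. *Rab25* had 2 E-boxes, at 64 and 53 bases before its RefSeq start at 88548279, which lies inside the gene as GENCODE draws it, so that the window is shown without its annotated exon. *Spint1* had no E-box and 1 ACCGGT at 77. Among 32851 RefSeq windows of 250 bp upstream of start sites, 17.2% held at least 1 E-box and 2.06% at least 2. At least 1 ACCGGT was found in 1.86% and at least 2 in 0.0274%, which is 9 windows. The full AACCGGTT was in 0.1157% of windows and in none of the windows of these genes. These matches describe letters only, and binding was not measured.

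At day 3 a part of these genes was lower in the *siOct4*-labelled libraries. *Cdh1*, *Epcam*, *Esrp1* and *Spint1* were between 3.58-fold and 4.21-fold lower and *St14*, the matriptase gene, was 2.11-fold lower. *Grhl2*, *Rab25*, *Esrp2* and *Ovol2* did not pass the test. Thus 5 of the 9 tested genes were lower and 0 were higher (limma, Benjamini-Hochberg adjusted over all genes), where 0.692% of all tested genes were lower and 0.375% were higher. The count of 0 higher was the same at an unadjusted p under 0.05 and with limma-voom on reads recovered from the values. The median log2 fold change was −1.08, against −0.021 over all tested genes. Both *siOct4*-labelled libraries lay below both *siNcor1* libraries for 8 of the 9 genes, which holds for 22.7% of all tested genes. When either *siNcor1* library of day 3 was left out, *Cdh1* alone remained past the threshold. From bulk RNA, fewer cells that express a gene and less of its RNA per cell cannot be told apart.

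By day 6 the differences between the knockdowns were smaller in value for *Cdh1*, *Epcam*, *Rab25*, *Esrp1*, *St14* and *Spint1*. *Grhl2* was 2.50-fold lower in the *siOct4*-labelled libraries, and *Spint1* and *Cdh1* were 1.62-fold and 1.60-fold lower, while *Esrp1* and *St14* had nearly equal levels. Lower expression was called for 3 of the 9 genes and higher expression for 0, compared with 18.6% and 12.1% of all tested genes, so the share of higher and lower calls together is close to the background. At an unadjusted p under 0.05, 1 gene was higher and 4 were lower, and with limma-voom 0 were higher and 4 lower. The median log2 fold change was −0.60, against −0.025 over all tested genes. The libraries did not overlap for 5 genes with lower values, *Cdh1*, *Epcam*, *Grhl2*, *Rab25* and *Spint1*, and for *Esrp2* with higher values, which compares with 34.8% of all tested genes all lower and 29.9% all higher. The *Spint1* call was lost under 6 of 11 other settings, and without any 1 of the *siNcor1* libraries or replicate 2 labelled *siOct4* at day 6 (adjusted p up to 0.195). The *Grhl2* call was lost without either *siNcor1* library of day 6 or without that same replicate, with adjusted p up to 0.166.

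**Figure D1:**
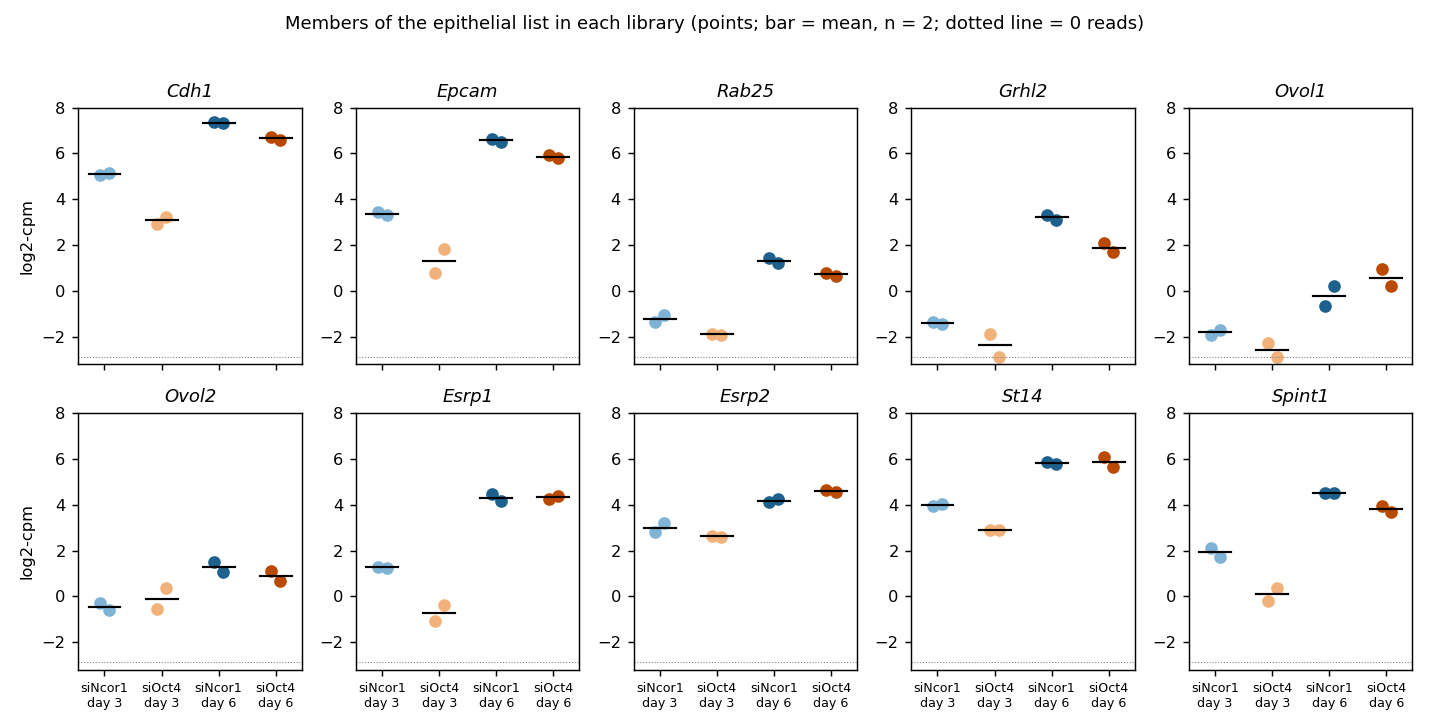
Deposited log2-cpm (vertical axis) of each of the 10 genes in the 4 groups, with 1 point per library and a bar at the mean of the 2 libraries. The dotted line at −2.87 is the value of 0 reads, and every gene has its day 6 points above its day 3 points within each knockdown.

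*Cdh1* (chr8:106603351-106670246 of mm10, plus strand), the gene for E-cadherin, had 33.0 and 35.4 CPM in the *siNcor1* libraries of day 3 and 7.52 and 9.24 CPM in those labelled *siOct4*. At day 6 it had 165 and 158 CPM in *siNcor1* and 105 and 96.8 CPM in the *siOct4*-labelled libraries. The knockdown groups did not overlap on either day, and the lowest library of day 6 was above all libraries of day 3. The log2 fold change was −2.02 at day 3 (standard error 0.13, adjusted p = 6.1e-05) and −0.68 at day 6 (adjusted p = 0.00350) in limma. The day 6 call was kept without any 1 library, with adjusted p between 0.00414 and 0.0336.

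*Epcam* (chr17:87635979-87651129, plus strand), which encodes an epithelial adhesion molecule that pluripotent cells also carry, followed the same order of groups. It had 10.7 and 9.69 CPM in *siNcor1* and 1.56 and 3.42 CPM in the *siOct4*-labelled libraries at day 3, from 23 and 27 reads in the latter. At day 6 the levels were 99.5 and 91.4 CPM and 60.2 and 54.8 CPM, respectively. Again the knockdown groups stood apart on both days. The day 3 difference, −2.07 on the log2 scale (standard error 0.26), passed the test (adjusted p = 0.00591). The day 6 difference of −0.73 did not (adjusted p = 0.0541), although it passed under 5 of 11 other settings, the replicate block among them (adjusted p = 0.0437), and without either *siOct4*-labelled library of day 3.

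*Rab25* (chr3:88542029-88548300, minus strand) encodes a small GTPase of the RAB11 group that acts in the recycling of membrane proteins in epithelial cells. It was at the limit of detection at day 3, with 4 and 6 reads in *siNcor1* and 2 and 1 reads in the *siOct4*-labelled libraries. That is a ratio of 2.26 of *siNcor1* over the label *siOct4*, with an exact 95% interval of 0.582 to 12.8 that covers counting error only, as do all intervals on read counts here. At day 6 it had 2.56 and 2.19 CPM in *siNcor1* and 1.59 and 1.44 CPM in the *siOct4*-labelled libraries. These libraries did not overlap, but the log2 fold change of −0.60 did not pass the test (95% interval −1.50 to 0.29, adjusted p = 0.289).

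*Grhl2* (chr15:37233036-37363569, plus strand), a grainyhead-like factor that activates *Cdh1* and other junction genes, was nearly silent at day 3. It had 4 reads in each *siNcor1* library and 2 and 0 reads in the *siOct4*-labelled libraries, and the ratio of 2.71 had an exact interval of 0.542 to 26.2. By day 6 it had reached 9.91 and 8.32 CPM in *siNcor1* and 4.12 and 3.06 CPM in the *siOct4*-labelled libraries. Both *siOct4*-labelled libraries lay below both *siNcor1* libraries, and the difference of −1.32 on the log2 scale passed the test (standard error 0.41, adjusted p = 0.0304). An antisense gene, *Gm16136*, shares 169 exonic bases with *Grhl2*, and whether the counting used strand is not given in the sources used here.

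The OVOL genes encode zinc finger repressors that oppose *Zeb1* and other mesenchymal genes, and both were scarce. *Ovol2* (chr2:144305175-144332146, minus strand) had 0.68 and 0.52 CPM in *siNcor1* and 0.54 and 1.14 CPM in the *siOct4*-labelled libraries at day 3, and 2.73 and 1.93 CPM and 2.01 and 1.44 CPM at day 6. The knockdown groups overlapped on both days, and neither difference passed the test (adjusted p = 0.884 and 0.484). *Ovol1* (chr19:5549136-5560646, minus strand) had 2 and 3 reads in *siNcor1* and 1 and 0 reads in the *siOct4*-labelled libraries at day 3. At day 6 it had 6 and 12 reads in *siNcor1* and 17 and 12 reads in the *siOct4*-labelled libraries, or 0.50 and 1.01 CPM and 1.80 and 1.02 CPM. *Ovol1* was thus the transcription factor of this list with the higher day 6 values under the label *siOct4*, with 12 reads in the nearest library of each group, and without the filter its log2 fold change of 0.81 did not pass (adjusted p = 0.277). Antisense transcripts overlap exons of *Ovol1* by up to 690 bases and of *Ovol2* by 359.

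The paralogous splicing factors *Esrp1* (chr4:11331933-11386783, minus strand) and *Esrp2* (chr8:106130319-106136974, minus strand) differed from each other. *Esrp1* had 2.29 and 2.26 CPM in *siNcor1* at day 3 and 0.34 and 0.63 CPM, from 5 reads each, in the *siOct4*-labelled libraries. At day 6 the *Esrp1* groups overlapped, with 21.9 and 17.8 CPM in *siNcor1* and 19.1 and 20.6 CPM in the *siOct4*-labelled libraries. With so few reads the fold depends on the pseudocount, and the log2 fold change lay between −2.27 and −1.15 under the 11 other settings, past the threshold in each. It was −1.996 at day 3 (standard error 0.26, adjusted p = 0.00591) and 0.008 at day 6 (95% interval −0.56 to 0.57, adjusted p = 0.984). *Esrp2* was already present at day 3, with 6.87 and 9.11 CPM in *siNcor1* and 6.16 and 5.95 CPM in the *siOct4*-labelled libraries, and it did not pass the test (adjusted p = 0.499). At day 6 it had 17.2 and 19.0 CPM in *siNcor1* and 25.3 and 23.4 CPM in the *siOct4*-labelled libraries, without overlap (log2 fold change 0.43, adjusted p = 0.0915). *Esrp2* was the tested gene whose libraries were all higher under this label at day 6. Genes on the opposite strand overlap exons of *Esrp1* by 127 bases (*Gm26663*) and of *Esrp2* by 219 bases (*Nfatc3*).

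Matriptase, the membrane serine protease encoded by *St14* (chr9:31089402-31131853, minus strand), is held in check by the inhibitor HAI-1, encoded by *Spint1* (chr2:119237362-119249527, plus strand). *St14* had 15.2 and 16.1 CPM in *siNcor1* and 7.32 and 7.34 CPM in the *siOct4*-labelled libraries at day 3. At day 6 it had 59.0 and 54.9 CPM and 67.1 and 50.8 CPM, and the groups overlapped. The *St14* log2 fold change was −1.08 at day 3 (standard error 0.15, adjusted p = 0.00834) and 0.037 at day 6 (95% interval −0.30 to 0.37). *Spint1* had 4.21 and 3.19 CPM in *siNcor1* and 0.75 and 1.14 CPM in the *siOct4*-labelled libraries at day 3, and 22.7 and 22.4 CPM and 15.4 and 12.6 CPM at day 6. The inhibitor was thus lower under the label *siOct4* on both days, by 1.84 (adjusted p = 0.00591) and 0.69 (adjusted p = 0.0491) on the log2 scale, and the protease passed the test at day 3. The *St14* call at day 3 was lost without any 1 of the 4 libraries of that day (adjusted p up to 0.133).

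From day 3 to day 6 every tested gene of the list rose in *siNcor1*. The comparisons between the days use the same libraries as those between the knockdowns. All 9 tested genes were higher at day 6 and 0 were lower (also 0 at an unadjusted p under 0.05 and with limma-voom), against 13.8% higher and 20.9% lower among all tested genes, and the median log2 fold change was 2.54 where that of all tested genes was −0.068. *Grhl2* had the largest change (log2 fold change 4.62, standard error 0.41, adjusted p = 2.4e-05), which in reads was 38.1-fold (exact interval 19 to 89.4). *Epcam* rose by 3.21, *Esrp1* by 3.04, *Spint1* by 2.58, *Rab25* by 2.54, *Cdh1* by 2.24, *St14* by 1.85, *Ovol2* by 1.73 and *Esrp2* by 1.18 on this scale. *Ovol2* had the highest adjusted p of these (0.00717), and its call was lost without replicate 2 of *siNcor1* at day 3 or without replicate 1 at day 6 (adjusted p up to 0.0736). *Ovol1*, outside the test, went from 5 reads in both libraries together to 18, a ratio of 5.01 in CPM (exact interval 1.79 to 17.3).

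In the *siOct4*-labelled libraries the rise was larger than in *siNcor1* for 6 of the 9 genes by limma's interaction term, described with the change between the days. Of the 9 genes, 8 were higher at day 6 and 0 were lower (0 at an unadjusted p under 0.05 and with limma-voom), against 22.2% higher and 30.5% lower among all tested genes, and the median log2 fold change was 3.57 against −0.079 over all tested genes. *Esrp1* rose by 5.05 on the log2 scale (standard error 0.26, adjusted p = 1.4e-07), from 10 reads in both libraries to 424, or 45.2-fold in CPM (exact interval 24.4 to 95.01). *Epcam* rose by 4.55, *Spint1* by 3.73, *Cdh1* by 3.57, *St14* by 2.97 and *Esrp2* by 1.98 on the log2 scale. *Grhl2* had 2 reads at day 3 and 75 at day 6, a ratio of 40 (exact interval 10.7 to 336), *Rab25* had 3 and 32 reads, a ratio of 11.4 (3.56 to 58.1), and *Ovol1* had 1 and 29 reads, a ratio of 30.9 (5.13 to 1264). *Ovol2* was the tested gene that did not pass (log2 fold change 0.98, adjusted p = 0.0620), though all its day 6 libraries were above those of day 3, and it passed under 3 of the 10 other settings that kept it and without replicate 2 labelled *siOct4* at day 3 (adjusted p = 0.0275).

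**Figure D2:**
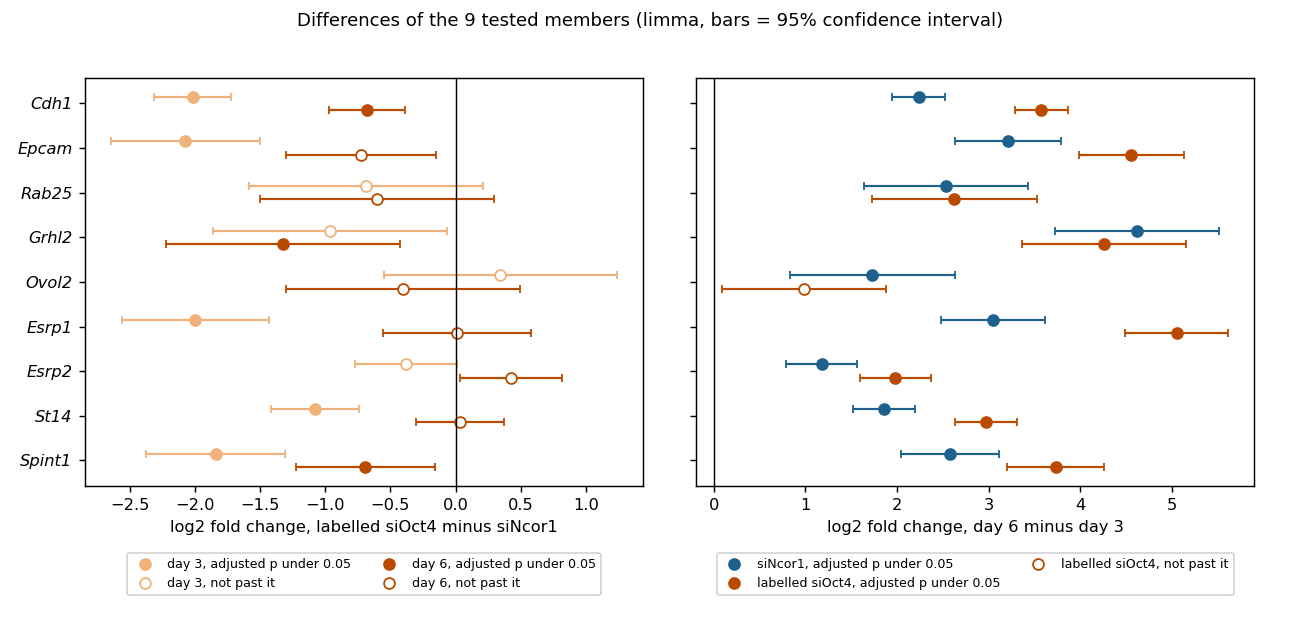
Log2 fold changes with their 95% confidence intervals from limma (horizontal axes) of the 9 tested genes, between the knockdowns on each day at the left and between the days in each knockdown at the right. Filled points have an adjusted p under 0.05, and 5 genes are filled at day 3, 3 at day 6, 9 in *siNcor1* and 8 in the *siOct4*-labelled libraries.

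The difference between the knockdowns was tested for a change between the days. It moved towards the *siOct4*-labelled libraries from day 3 to day 6 for 6 of the 9 genes and the other way for 0 (0 also at an unadjusted p under 0.05 and with limma-voom), while 7.77% of all tested genes moved in that direction. Of all 13866 tested genes, 2867 were called for this change, 1077 of them in that direction and the larger rest the other way. The change was 2.004 for *Esrp1* (adjusted p = 0.00357, standard error 0.37), with smaller values for *Epcam* (1.34), *Cdh1* (1.34, adjusted p = 0.00117), *Spint1* (1.15), *St14* (1.12) and *Esrp2* (0.80). For *Cdh1*, *Epcam* and *Spint1* the value stayed below 0 at day 6, for *Esrp1* and *St14* it was near 0, and for *Esrp2* it changed sign. *Rab25* (0.088, adjusted p = 0.933), *Grhl2* (−0.36, adjusted p = 0.698) and *Ovol2* (−0.75, adjusted p = 0.386) did not pass. Under 10 other settings, the *Spint1* call was lost without the trend, without the filter and with a pseudocount of 1 (limma, adjusted p up to 0.129). That of *Esrp2* was lost without the trend and without the filter (up to 0.0600), and that of *Epcam* without the trend (0.0831). *Grhl2* gained a call with a pseudocount of 1. The calls of *Cdh1*, *Esrp1* and *St14* were kept without any 1 library. Those of *Epcam* and *Spint1* were lost without any 1 of the *siNcor1* libraries, that of *Spint1* also without replicate 1 labelled *siOct4* of either day, and that of *Esrp2* in 6 of the 8 fits, without any library but replicate 1 of *siNcor1* at day 3 or replicate 2 labelled *siOct4* at day 6, with adjusted p up to 0.0958, 0.121 and 0.180.

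Levels were compared between genes as CPM per kilobase of the union of annotated exons. In *siNcor1* at day 6 the order was *Epcam* (43.5 ± 2.61, SD, n = 2), *Cdh1* (35.3 ± 1.07), *Spint1* (8.16 ± 0.070), *St14* (7.46 ± 0.379), *Esrp2* (4.17 ± 0.295), *Esrp1* (3.15 ± 0.457), *Rab25* (1.42 ± 0.159), *Ovol2* (1.10 ± 0.265), *Grhl2* (1.06 ± 0.131) and *Ovol1* (0.216 ± 0.104). In that group the adhesion molecules were the most abundant and the transcription factors the least, and *Ovol2* and *Grhl2* overlapped. At day 3 *Cdh1* was first in both knockdowns, with 7.48 ± 0.381 in *siNcor1* and 1.83 ± 0.266 in the *siOct4*-labelled libraries.

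Ratios of such levels within a library do not depend on library depth, but their side of 1 depends on the exon lengths used. Those lengths need not match the transcripts expressed. Without division by length, *siNcor1* at day 6 had means of 162 CPM of *Cdh1* against 95.4 of *Epcam*. The means there were 56.9 CPM of *St14* against 22.6 of *Spint1*, and 19.9 of *Esrp1* against 18.1 of *Esrp2*. *Cdh1* over *Epcam* was 1.48 and 1.76 in *siNcor1* and 2.32 and 1.30 in the *siOct4*-labelled libraries at day 3, and 0.796 and 0.830 and 0.834 and 0.847 at day 6. Per kilobase, E-cadherin RNA was thus above *Epcam* RNA in all 4 libraries of day 3 and below it in all 4 of day 6. *St14* over *Spint1* was 1.31 and 1.82 in *siNcor1* and 3.56 and 2.33 under the label *siOct4* at day 3. At day 6 it was 0.941 and 0.886 against 1.58 and 1.46. Per kilobase, protease RNA was thus below inhibitor RNA in the *siNcor1* libraries of day 6 and above it in the other 6 libraries. *Esrp1* over *Esrp2* was 0.229 and 0.171 in *siNcor1* and 0.0378 and 0.0732 under the label *siOct4* at day 3, and it lay between 0.521 and 0.877 in the 4 libraries of day 6. *Esrp2* RNA per kilobase exceeded *Esrp1* RNA per kilobase in all 8 libraries.

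**Figure D3:**
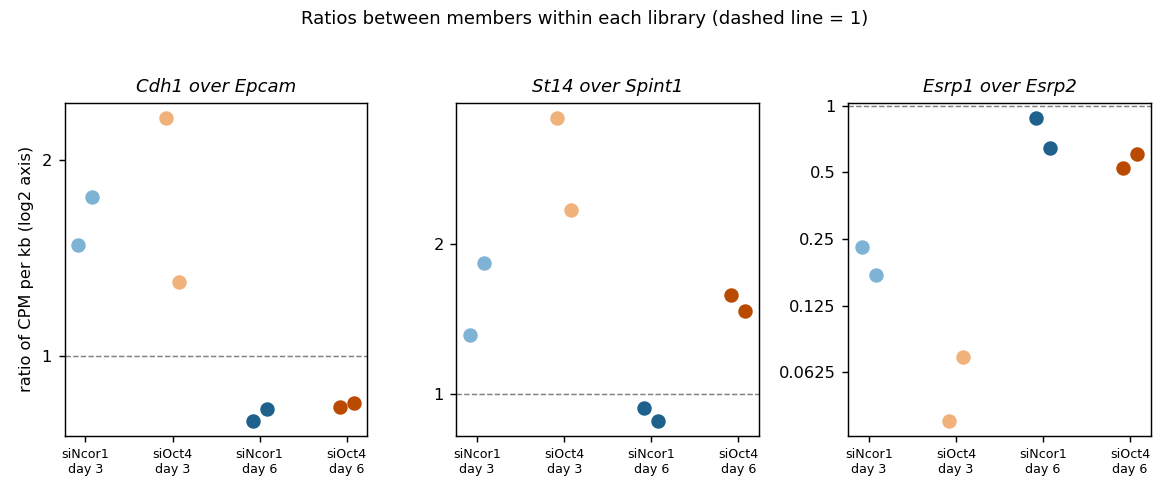
Ratio of CPM per kb (vertical axes, log2 scale, each with its own range) of *Cdh1* over *Epcam*, *St14* over *Spint1* and *Esrp1* over *Esrp2* in each of the 8 libraries, with a dashed line at 1. *Cdh1* over *Epcam* lies over the line in the day 3 libraries and under it in those of day 6, and *Esrp1* over *Esrp2* is below it in every library.

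The genes that work with these members were read from lists. Of 10 adherens junction partners of E-cadherin, 0 were called between the knockdowns at day 3 (1 was higher and 0 lower at an unadjusted p under 0.05, and 0 were called with limma-voom), and 5 were lower and 0 higher at day 6, where 18.6% and 12.1% of all tested genes were. The lower genes included *Jup* (γ-catenin, log2 fold change −1.33), *Nectin2* (−1.25), *Vcl* (vinculin, −1.06) and *Ctnnb1* (β-catenin, −0.65), and the list median was 0.045 at day 3 and −0.53 at day 6. The list was split between the days, with 4 genes higher and 5 lower at day 6 in *siNcor1* (13.8% and 20.9% of all tested genes) and 1 higher and 7 lower under the label *siOct4* (22.2% and 30.5%). These shares of all tested genes are the background for the other lists as well. *Vcl* fell by 1.22 and 2.58 on the log2 scale in these comparisons, and *Nectin4*, a nectin of epithelia, was 2.06 and 1.22 higher. Under the label *siOct4* the *Nectin4* value came from 14 reads at day 3 and 31 at day 6 (limma, adjusted p = 0.0424). With limma-voom 0 genes of the list were higher there and 6 were lower. *Cdh1* and its partners therefore did not move as 1 group over the days.

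The repressors *Zeb1*, *Zeb2*, *Snai1*, *Snai2*, *Twist1* and *Twist2* were not called between the knockdowns at day 3 (2 were higher and 0 lower at an unadjusted p under 0.05, and 0 were called with limma-voom), with a median log2 fold change of 0.18. At day 6 all 6 were lower in the *siOct4*-labelled libraries and the median was −0.85, with *Zeb1* (−0.99), *Zeb2* (−0.93), *Snai2* (−0.93) and *Snai1* (−0.78). Repressors and *Cdh1* were thus lower in the same libraries at day 6. Between the days 4 repressors fell under the label *siOct4*, *Zeb1* by 1.56, *Zeb2* by 1.48, *Snai1* by 1.19 and *Snai2* by 1.01, and 0 rose. In *siNcor1* *Zeb1* fell by 0.41 (adjusted p = 0.0463) and *Twist2* rose by 1.08 (adjusted p = 8.8e-04), while the remaining 4 did not pass.

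Other epithelial transcription factors were partly in step with the members. Of 11 listed, 8 were tested, and *Tfap2c* was lower at day 3 in the *siOct4*-labelled libraries (log2 fold change −1.89, adjusted p = 0.0231), from 10 reads there. At day 6, 3 were lower and 0 higher, *Elf3* (−1.66), *Tfap2c* (−1.41) and *Tfap2a* (−1.12). From day 3 to day 6, 6 rose and 1 fell in *siNcor1*, and 5 rose and 0 fell under the label *siOct4*. *Elf3* rose by 3.33 and *Tfap2c* by 3.14 in *siNcor1*, *Ehf* fell by 1.29, and under the label *siOct4* *Tfap2c* rose by 3.61.

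Genes around matriptase showed a wider range than *St14* and *Spint1*. Of 12 listed, 9 were tested, and at day 3 *Spint2*, the gene for the related inhibitor HAI-2 (log2 fold change −1.32), and *F2rl1*, the receptor PAR2 that matriptase can cleave (−1.11), were lower under the label *siOct4* (both adjusted p = 0.0201), and 0 were higher. With limma-voom 0 of the 9 were called at day 3, and at an unadjusted p under 0.05, 1 was higher and 3 were lower. At day 6, 4 were lower and 0 higher, the membrane proteases *Tmprss2* (−4.07, from 10 against 229 reads) and *Prss8* (−3.16, from 23 against 252 reads), *Plau* (−1.07) and *Met* (−0.54). *Tmprss2* and *Prss8* were thus present mainly in *siNcor1* at day 6, where *St14* itself did not pass the test. Between the days 5 genes rose and 2 fell in each knockdown, and *Spint2* rose by 2.04 in *siNcor1* and 3.90 under the label *siOct4*.

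**Figure D4:**
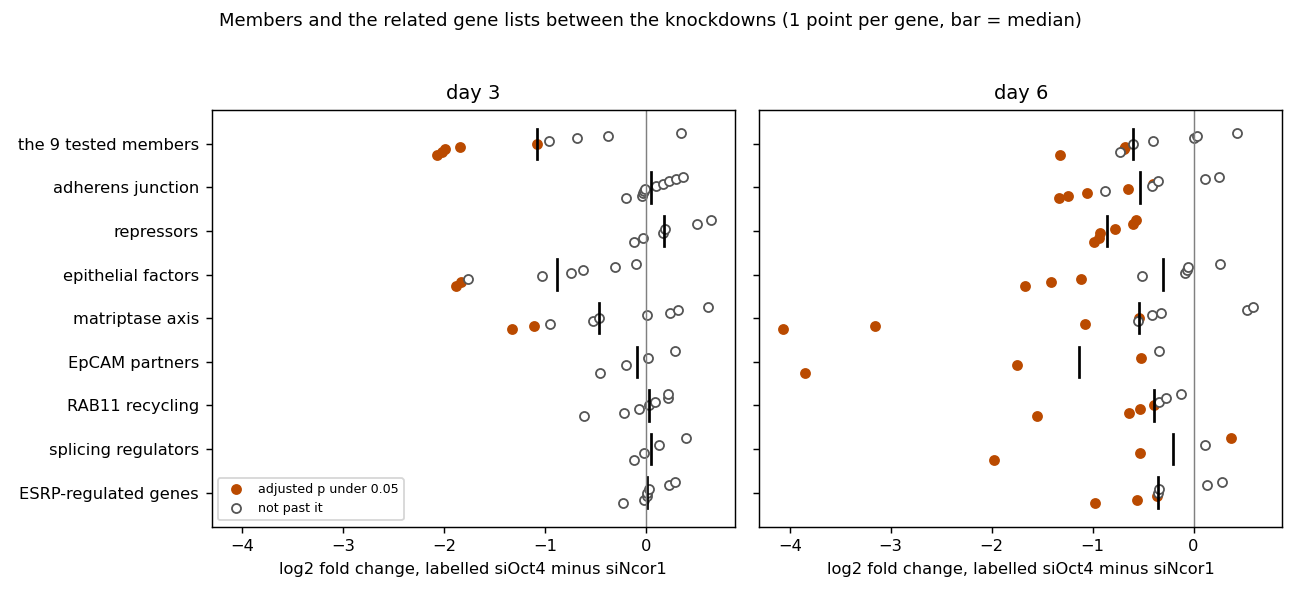
Log2 fold change of the *siOct4*-labelled libraries against *siNcor1* (horizontal axes) at day 3 and day 6 for the 9 tested genes and each related list, with 1 point per gene and a bar at the median. Filled points have an adjusted p under 0.05, and the repressors, all open at day 3, are all filled and below 0 at day 6.

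Of 4 relatives and partners of EpCAM, 0 were called at day 3. At day 6, 3 were lower under the label *siOct4* and 0 higher, against 18.6% and 12.1% of all tested genes. The list median was then −1.13, and the largest difference was in a gene not named here. *Cldn7*, a claudin that binds EpCAM (log2 fold change −1.75, adjusted p = 0.0227), and the tetraspanin *Cd9* (−0.52, adjusted p = 0.0160) were among the lower genes. *Cldn7* and *Cd9* rose between the days in both knockdowns and *Cd44* fell, by 0.66 in *siNcor1* and 1.29 under the label *siOct4*. Of 9 proteins of RAB11 recycling, 7 were tested, 0 were called at day 3 by limma, at an unadjusted p under 0.05 or with limma-voom, and 4 were lower and 0 higher at day 6, with *Rab11fip4* at −1.55. Between the days 2 of them rose and 1 fell in *siNcor1*, and 2 rose and 3 fell under the label *siOct4*, against 13.8% and 20.9% and 22.2% and 30.5% of all tested genes in the same order.

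Regulators that act on the exons that ESRP proteins control were also read. Of 5 listed, 4 were tested, and 0 were called at day 3 by limma, unadjusted or with limma-voom. At day 6 *Rbm47* (log2 fold change −1.98) and *Rbfox2* (−0.53) were lower and *Ptbp1* (0.37) was higher under the label *siOct4*. *Rbm47* rose by 2.08 from day 3 to day 6 in *siNcor1*, *Rbfox2* fell by 0.79 under the label *siOct4*, and *Hnrnpm* fell by 0.78 and 0.54. Of 7 genes with ESRP-regulated exons, 0 were called at day 3 by the same 3 readings, and 3 were lower and 0 higher at day 6, *Fgfr2* (−0.98), *Enah* (−0.56) and *Arhgef11* (−0.36). Over the days 4 of these 7 fell in *siNcor1* and 5 under the label *siOct4*, and 0 rose in either (0 also at an unadjusted p under 0.05 and with limma-voom). Isoforms cannot be read from gene-level values. The counts of 0 higher genes in the lists at day 6 were also 0 at an unadjusted p under 0.05 and with limma-voom, except that in the matriptase list 2 and 1 genes were then higher.

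The genes closest to *Cdh1* over the 8 libraries were found by the distance between log2 values centred on each gene's mean. The nearest of all tested genes was the member *Spint1* (distance 0.567, r = 0.994), and the nearest non-members were *Gpa33* (0.819), *Tjp3* (0.857), *Nfasc* (0.906), *Nodal* (0.944) and *Lypd6b* (0.945). For *Epcam* the nearest were *Tdh* (0.784), the member *Esrp1* (0.851), *Tfap2c* (1.10) and the member *Spint1* (1.14), before *Lrmp* (1.24), *Clec2f* (1.29) and *Mt3* (1.40). The same 4 groups lie behind each of these distances, and they are given as a description.

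Marker genes were summed in each library to see what else moved. The 7 fibroblast markers were all detected, and their summed level was 6228 to 6347 CPM in *siNcor1* and 8740 to 10306 CPM in the *siOct4*-labelled libraries at day 3, and 4314 to 4657 CPM and 2385 to 2446 CPM at day 6. *Col1a1* made up much of these sums, and single markers went other ways, since from day 3 to day 6 in *siNcor1* *Thy1* (log2 fold change 1.14), *Pdgfra* (0.83) and *Col3a1* (0.58) rose while *Col1a1* and *Col1a2* fell. Between the knockdowns 0 of the 7 were called at day 3 (5 were higher and 0 lower at an unadjusted p under 0.05, and 2 were higher with limma-voom), and 6 were lower in the *siOct4*-labelled libraries at day 6. The 7 pluripotency markers summed to 7.42 to 7.77 CPM and 1.29 to 3.67 CPM at day 3 and to 90.3 to 96.5 CPM and 42.5 to 46.4 CPM at day 6, the order of groups that *Cdh1* and *Epcam* also had. *Nanog* and *Sall4* made up most of the day 6 sums, and neither passed between the knockdowns then (limma, adjusted p = 0.0687 and 0.227). Of the 5 tested, 1 was lower at day 3 and 2 at day 6, against 0.692% and 18.6% of all tested genes. On both days 0 were higher, also at an unadjusted p under 0.05 and with limma-voom. At day 3, 2 of these 7 had 0 reads in both *siNcor1* libraries and 3 in both *siOct4*-labelled libraries. The 5 keratinocyte markers summed to 1.39 to 1.86 CPM in *siNcor1* and 3.67 to 3.997 CPM under the label *siOct4* at day 3. At day 6 they summed to 8.01 to 10.2 CPM and 2.22 to 2.55 CPM, when *Krt14* was lower under that label (log2 fold change −1.32, adjusted p = 0.0443). The day 3 sum under that label came mostly from *Ivl*, with a mean of 2.24 CPM against 0.45 in *siNcor1*. Under the same label *Ivl* had 0.29 CPM at day 6, while *Krt14* went from 0.16 to 1.25 CPM, so these markers went different ways. The 4 endothelial markers summed to between 16.4 and 44.3 CPM over all libraries, nearly all from *Tek*. The 3 haematopoietic markers in the table summed to between 4.35 and 10.0 CPM. The part of these cell types in the differences between the knockdowns was not tested.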

How the data were processed

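RNA-seq libraries of reprogramming MEFs were aligned to mm10 (GRCm38) with STAR 2.5.2b and converted by the authors to log2-cpm with edgeR 3.20.9, as the submitters' processing notes list, and these log2 values were deposited for 18990 genes. The lowest value, −2.87484, stands for 0 reads. Subtracting that constant on the linear scale left whole reads for 100% of values, within a tolerance of 0.1 read, which gave reads and CPM. A chi-square test of the reads of the 2 replicates gave 8.44 to 18.7 per degree of freedom, above counting noise in every group and highest in the *siOct4*-labelled libraries of day 6, and each library was kept as 1 sample.

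Genes were kept from a mean of 1 CPM upwards and tested with limma 3.58.1 in R 4.3.3 (lmFit, eBayes with trend) on the deposited values, all 4 groups in one fit, with Benjamini-Hochberg adjustment over 13866 genes at 0.05. Fold changes understate changes of low genes, since the constant acts as a pseudocount. Positions came from GENCODE M21 on GRCm38, which matched 18969 identifiers. The limma fit and the library scaling used with limma-voom were tried on simulated reads. The members and lists were chosen with earlier results of these data known. All members were named, with up to 4 called genes of each list and comparison that had the largest change, and the 5 non-members nearest to *Cdh1* and to *Epcam*. The alternatives were quantile normalization, medians set to 0, eBayes without its trend, a total without *Gm26917*, either no filter or one at 10 CPM, the replicate block, a pseudocount of 0.1 or 1 on CPM, only the groups compared, limma-voom on the recovered reads, and leaving out each library. Some genes of the lists are not reported here by name.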

Additional observations from a re-analysis of the deposited data

Results flagged for a closer look

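For 6 of the 9 tested genes the difference between the knockdowns was not the same on day 3 and day 6, by limma's test of the change itself, and 7.77% of all tested genes changed in the same direction. Those were 1077 of the 2867 genes called for this change, and the larger rest changed the other way. The change in log2 fold change, of the libraries labelled *siOct4* against *siNcor1*, was 1.337 for *Cdh1* (adjusted p = 0.00117), 1.343 for *Epcam* (adjusted p = 0.0264) and 2.004 for *Esrp1* (adjusted p = 0.00357). It was 0.8041 for *Esrp2* (adjusted p = 0.0427), 1.116 for *St14* (adjusted p = 0.00529) and 1.15 for *Spint1* (adjusted p = 0.0354). At day 3 all 4 comparisons of single libraries put the label *siOct4* lower for each of these genes. At day 6 that remained so for *Cdh1*, *Epcam* and *Spint1*, the libraries overlapped for *Esrp1* and *St14*, and both libraries labelled *siOct4* were higher for *Esrp2*. The calls of *Epcam*, *Spint1* and *Esrp2* were lost without certain single libraries, in 4, 6 and 6 of 8 fits. All of these calls were also lost without the trend. Those of *Spint1* and *Esrp2* were lost without the filter, and that of *Spint1* with a pseudocount of 1.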

How the results depend on the processing

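Of 471 values of single tested members under up to 11 other settings, 444 kept their direction and their side of the threshold, 14 lost the call, 10 gained it and 3 reversed. Without the trend, 3 members were called at day 3, 3 in the change of the difference, and 43 genes in all at day 3, which was 81 genes when only a mean of at least 10 CPM was tested, a filter that left 1 member called at day 6. Leaving out 1 library gave 1 to 5 members called at day 3, 1 to 4 at day 6, 8 to 9 over the days in each knockdown and 3 to 6 for the change, and 3 to 375, 1398 to 4669, 2360 to 5954, 5397 to 7374 and 1009 to 3667 genes called in these comparisons. Values near 0 changed sign without 1 library: *Ovol2* at day 3 (−0.1127 to 0.7985), *Esrp1* at day 6 (−0.1394 and −0.04603, up to 0.1555) and *St14* at day 6 (−0.0152 and −0.1643, up to 0.2375). For the change of the difference, *Rab25* was −0.545 with quantile normalization, −0.2251 with a pseudocount of 1, and −0.08011 and −0.02037, up to 0.2556, without 1 library, and *Grhl2* was 0.04082 with limma-voom and −0.8543 to 0.1412 without 1 library. The causes were not tested. With the total taken without *Gm26917*, the median of all genes shifted by 0.134 between the days under the label *siOct4*, and by less than 0.1 in other comparisons. The replicates share only a number. The deviations of same-numbered libraries correlated between −0.0395 and 0.281, and a fit with the number as a block gave 5, 4, 9, 8 and 6 members and 222, 4698, 5218, 7570 and 3395 genes called in the 5 comparisons. Depth limits *Rab25*, *Grhl2* and *Ovol1* at day 3, which rest on 6 reads or fewer in a library, and the fold of *Esrp1*, with 5 reads in each *siOct4*-labelled library of day 3.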
